A study of Mus musculus with 37 samples.

Results

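Rab GTPases were followed in 37 single cells sorted from fat tissue. They were taken as the rows of the deposited expression table whose symbol is Rab, a number and at most a letter and a digit, which gave 57 genes of the 23947 in the table. The pattern uses symbols and no measured value. Rab1 is the older symbol of Rab1a, and Rab7l1, a Rab under an older name, falls outside the pattern. All cells carried 1 set of labels. The mice were males of the C57BL/6J strain, fed a high-fat diet, with no genetic change named and their ages given only as matched. The tissue was epididymal white adipose tissue, the visceral fat pad beside the testis, and its sorted cells, labelled adipose tissue macrophages, were captured on a Fluidigm C1 microfluidic chip. No label ties a cell to an animal, so the 37 cells count as 1 sample: the values below describe these cells, and no p-value was computed.

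Rab proteins are small GTPases that mark the membranes of the cell and direct vesicle traffic between them. In the GTP-bound form, loaded by exchange factors, a Rab sits on its membrane and recruits effectors such as tethers and motors. GTPase-activating proteins return it to the GDP form, which GDP dissociation inhibitors (GDIs) lift off the membrane. In macrophages, Rabs steer the maturation of phagosomes and endosomes towards lysosomes, the recycling of receptors and the release of cytokines.

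The family identity of the rows was checked in the coding sequences of GENCODE M21 (mouse, GRCm38). Of 57 sequences, 55 encoded the phosphate-binding loop of GTPases, searched as glycine, any 4 residues, glycine, lysine, then serine or threonine. Rab40b and Rab40c did not match this spelling. All 57 held a cysteine in the last 4 residues, where Rabs receive their lipid anchor. The loop-coding stretch of the 4 Rabs found in most cells is printed 5′ to 3′ as the shared signature of the family. The Rab5 trio follows because its members were detected so unevenly here, with capitals for the bases of Rab5a and Rab5b that differ from Rab5c.
Rab14: ggggatatgggagtaggaaaatct
Rab8b: ggcgactccggcgttggcaagacc
Rab31: ggggacacgggggttgggaaatcc
Rab1: ggcgattctggggttggaaagtcc
Rab5a: ggAgagtctgcTgtTggcaaAtcA
Rab5b: ggAgagtctgcAgtgggGaagtcT
Rab5c: ggcgagtctgccgtgggcaagtcc

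Rab5a differed from Rab5c at 5 of these 24 bases and Rab5b at 4, although all encode the same kind of loop. Over their whole coding sequences the Rab5 genes were 73.5% to 75.8% identical in bases, and Rab1 and Rab1b 76.1%. No pair of close relatives shared a run of 50 bases in its coding sequence. Runs of 25 bases were shared by Rab1 and Rab1b at 14 positions and by Rab5a and Rab5b at 11. In all, 18 of the 57 Rabs shared such a run with another. Some were not close relatives, such as Rab10 with Rab1 at 11 positions and Rab4a with Rab8a at 8. Short reads from these stretches could be split between Rabs. Untranslated parts were not compared. Neighbouring genes can also share reads. On GRCm38, 62.4% of the exonic bases of Rab24 overlap Prelid1 on the opposite strand, and 18.99% of those of Rab6a overlap Mrpl48 there. Other transcripts on the opposite strand cover 59.3% of Rab2b and 25.6% of Rab20. Predicted genes on the same strand cover 75.4% of Rab43 and 65.0% of Rab4b. No source used here gives whether the counting used strand, and strand could not separate Rab43 and Rab4b from the genes on their own strand. The values of these 6 genes are therefore uncertain. Smaller overlaps, of Rab7 among others, bring the number of Rabs that share exonic bases with another gene to 20.

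The values are FPKM, fragment numbers divided by transcript length and by the depth of the cell, and a gene counts as detected from 1 FPKM upward. Between 1224 and 3204 genes were detected per cell, with a median of 1824, and the FPKM sum of a cell ran from 225528 to 1841670. A listed 0 can be a failed estimate in such a table. The value of 1 fragment, a stand-in for relative depth, spanned 97.5-fold between cells and was more than 4 times the median in 6 of them (2, 7, 15, 17, 24 and 26). The macrophage label was checked with 15 marker genes, of which 8 to 14 were detected per cell, with a median of 13. Cells 7 and 27 also held 7 and 8 of 8 fibroblast and progenitor genes, with summed levels of 7186 and 11407 FPKM against at most 604 FPKM and 1 such gene in any of the other 35. They held 10 and 9 of the macrophage genes at 1 FPKM or more, but their summed macrophage levels were 331 and 139 FPKM, against at least 8505 FPKM in each of the other 35, so these 2 cells go against the macrophage label. No cell held 3 markers of any of 9 other cell types. The main counts are therefore also given without cells 7 and 27. Counts and intervals of single Rabs include these cells. Without them, Rab14, Rab8b, Rab31 and Rab1 were in 24, 24, 21 and 19 cells, beside 25, 24, 22 and 21. The part of those cells in each value was otherwise not tested.

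At 1 FPKM, Rab transcripts were seen in every cell, but each cell showed a small and different selection of the family. Sparse detection was not particular to Rabs: a cell held 1224 to 3204 of the 23947 genes at that level. The median number of Rabs per cell was 9 at 1 FPKM and 14 at 0.1 FPKM. Of the 57 genes, 40 (70.2%) were listed above 0 in at least 1 cell, compared with 48.4% of all genes in the table. At 1 FPKM or more, 39 were found in some cell, 23 (40.4%) in at least 5 cells and 4 (7.02%) in at least 19 of the 37. Over all genes the corresponding shares were 19.6% for 5 cells and 4.03% for 19 cells. The share of all genes found in some cell at 1 FPKM was not computed, here or for the groups below. No Rab was detected in all 37 cells, as 86 genes of the table were. Among genes found in at least 5 cells, the median number of cells was 12 for Rabs and 10 for all 4694 such genes. Without cells 7 and 27 the counts of 23 and 4 were the same.

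The 17 genes listed at 0 in every cell were Rab3a, Rab3b, Rab3c, Rab9b, Rab15, Rab17, Rab19, Rab25, Rab26, Rab27b, Rab30, Rab33a, Rab36, Rab37, Rab39b, Rab42 and Rab44. Several of them are known for work in other tissues: Rab3a is the Rab of synaptic vesicles, and Rab17 and Rab25 serve epithelial cells. For a gene at 1 FPKM in 0 of 37 cells, the limit from 3 cells is a share of 8.11%; it covers counting error only and bounds the share of cells at that level, not of cells that express the gene. Rab5a, an early endosome Rab, was listed at 0 in 32 cells and nowhere exceeded 0.183 FPKM.

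**Figure D1:**
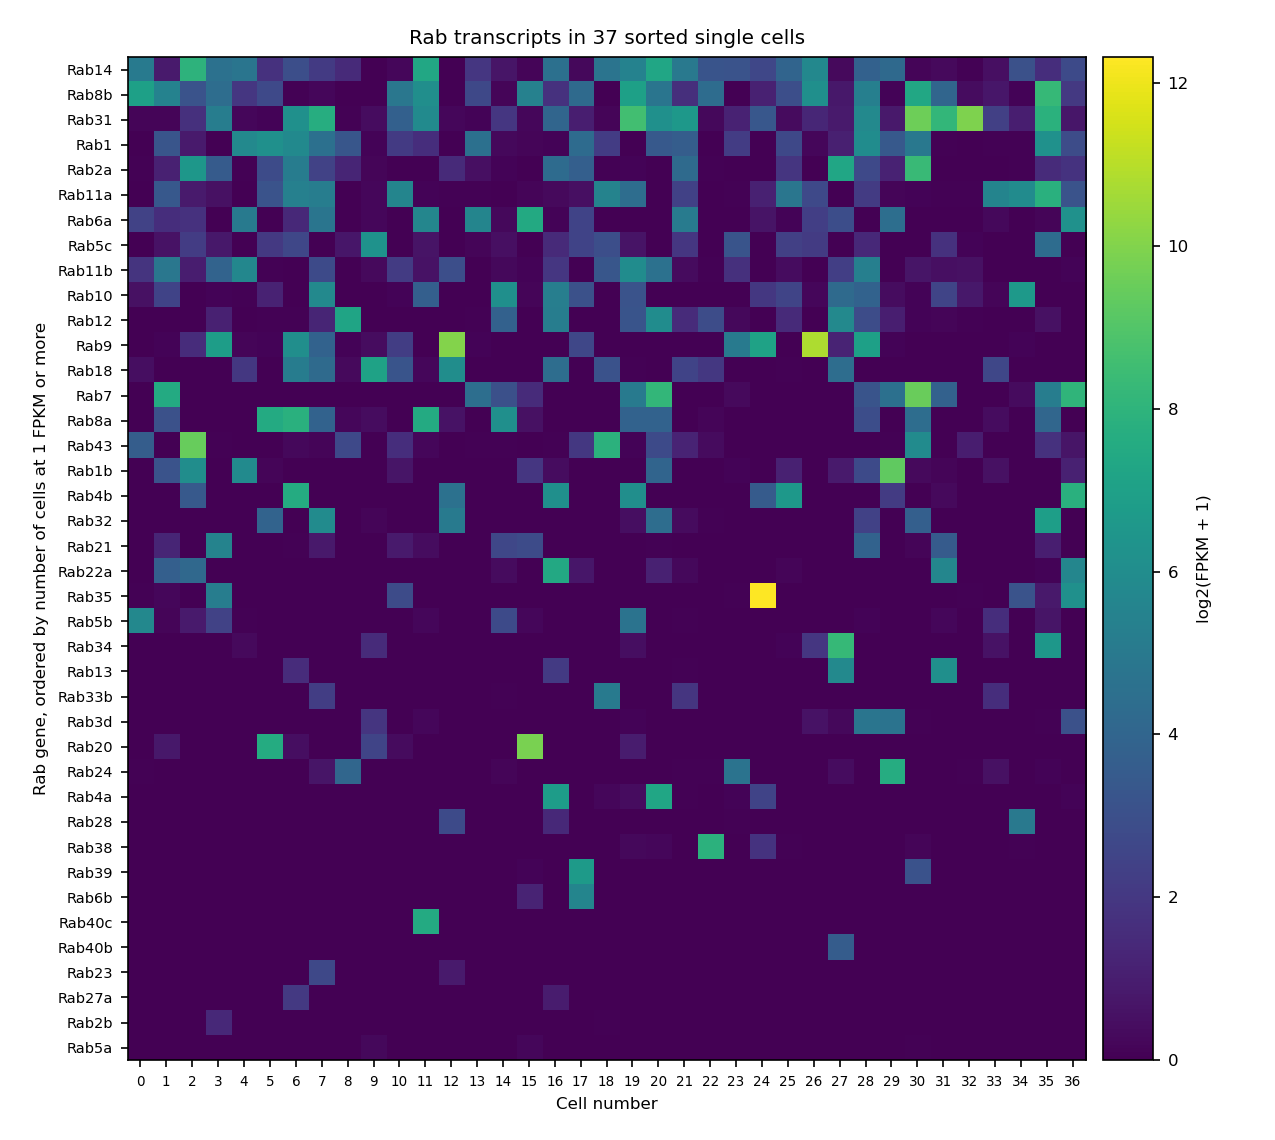
Levels of the 40 Rab genes listed above 0 (rows, ordered by the number of cells at 1 FPKM or more) in each of 37 cells (columns), coloured by log2(FPKM + 1). The upper rows are filled in up to 25 cells, the lower rows in 1 or a few, and the brightest square is Rab35 in cell 24.

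Of the 2109 Rab values, 1490 were listed at 0, 279 lay between 0 and 1 FPKM (136 of them under 0.1), 156 from 1 to under 10, 135 from 10 to under 100, and 49 at 100 or above. Among values at 1 FPKM or more, 54.1% were thus at 10 FPKM or more. The log2(FPKM + 1) values of the 23 Rabs found in at least 5 cells had a median SD over cells of 2.23, beside 2.10 for all genes found that widely. In 16 of the 37 cells, 1 Rab held 50% or more of the summed Rab FPKM, and no like figure was computed for other gene sets. The highest Rab took 25.3% to 99.7% of the summed Rab FPKM of its cell, with a median of 47.4%, and it was a different gene from cell to cell, with 19 genes leading somewhere. Rab31 led in 6 cells, Rab9 in 5, and Rab7 and Rab8a in 3 each.

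The group with most members was recycling and delivery to the cell surface, with 11 of its 14 Rabs found in some cell. In at least 5 cells, 9 were found, beside 19.6% of all genes. Rab14, which acts between the trans-Golgi network, endosomes and phagosomes, was detected in 25 cells (67.6%, exact 95% interval 50.2% to 82.0%), the most of any Rab. Its lowest value was 0, its median 5.73 FPKM and its highest 245 FPKM, in cell 2. Rab8b, of transport to the plasma membrane, followed in 24 cells (64.9%, 47.5% to 79.8%), with a lowest value of 0, a median of 5.47 FPKM and a highest of 301 FPKM in cell 35. The intervals of the pair overlap over most of their length, so their order is not resolved. Such intervals reflect the sampling of cells and leave out any difference between animals.

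Rab11a and Rab11b, which define the recycling endosome, were found in 16 and 14 cells. Rab11a had a median of 0.415 FPKM and a highest value of 228 FPKM, and Rab11b had 0.402 and 63.5 FPKM, with lowest values of 0 for both. Rab8a, the close relative of Rab8b, was found in 11 cells, and all 11 were at 5 FPKM or more. It was listed at 0 in 20 cells and reached 222 FPKM in cell 6. Rab10, which carries membrane proteins such as TLR4 to the surface, was found in 14 cells (median 0.123, highest 101 FPKM) and Rab12 in 13 (median 0.0669, highest 143 FPKM). Rab4b, of fast recycling, was at 0 in 27 cells and at 1 FPKM or more in 9, with a median of 66.1 FPKM in those 9 and a highest of 227 FPKM. Rab4a was found in 3 cells and reached 153 FPKM, and Rab13, a Rab of cell junctions, was found in 4.

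Rab35, a Rab of endocytic recycling and actin, held the highest value of the whole family. It was 5102 FPKM in cell 24, or 97.6% of all Rab35 signal, while the next cell had 72.5 FPKM and 27 cells were at 0. Cell 24 was 1 of the 6 cells in which 1 fragment counted for most, and the value was 0.277% of its FPKM sum. This single value made up 19.5% of the summed FPKM of all Rabs in all cells.

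The Rabs of the endoplasmic reticulum and Golgi were found in some cell for 9 of 12 members. In at least 5 cells, 6 were found, where the share over all genes was 19.6%. Rab1, which drives transport from the endoplasmic reticulum to the Golgi, was detected in 21 cells (56.8%, 39.5% to 72.9%). Its values ran from 0 through a median of 3.26 FPKM to a highest of 74.7 FPKM in cell 35, so it was the only Rab of the 4 most widely found that reached 100 FPKM in no cell. Rab1b, which has the same task, was found in 9 cells with a median of 0 and a highest of 643 FPKM in cell 29, which alone held 80.1% of its signal. Rab2a, also of this route, was found in 18 cells (median 0.399, highest 323 FPKM in cell 30), and Rab2b in 1 cell at 1.70 FPKM.

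Rab6a, of traffic within and out of the Golgi, was found in 15 cells (median 0.162, highest 180 FPKM), whereas its relative Rab6b was listed at 0 in 35 cells. Rab18, a Rab of the endoplasmic reticulum and of lipid droplets, was found in 12 cells (median 0.0119, highest 137 FPKM in cell 9). Rab43, a Golgi Rab, was found in 10 cells and reached 707 FPKM in cell 2. Rab33b, which takes part in autophagy, was found in 4 cells and reached 31.8 FPKM.

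Among the 7 Rabs of early endosomes and uptake, 6 were found in some cell. Of the 7, 5 were found in at least 5 cells, beside 19.6% of all genes. Rab31, which links the trans-Golgi network with endosomes, was the only Rab above 0 in all 37 cells. It was detected in 22 (59.5%, 42.1% to 75.2%), with a lowest value of 0.0556 FPKM, a median of 1.52 FPKM and a highest of 977 FPKM. Its mean of 88.6 FPKM was far above its median because 6 cells held 100 FPKM or more. These were cells 7, 19, 30, 31, 32 and 35, and the remaining cells were below that level.

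Cell 32 is an extreme of this pattern: Rab31, at 977 FPKM, was the only Rab detected in it and made up 99.7% of its Rab signal. Rab22a, the nearest relative of Rab31, was found in 6 cells and reached 175 FPKM. Of the classical early endosome Rabs, Rab5c was found in 14 cells at low levels (median 0.539, highest 76.8 FPKM in cell 9), Rab5b in 5 (highest 52.9 FPKM) and Rab5a in none. Rab21, of integrin uptake, was found in 7 cells (highest 45.1 FPKM) and Rab24 in 3.

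**Figure D2:**
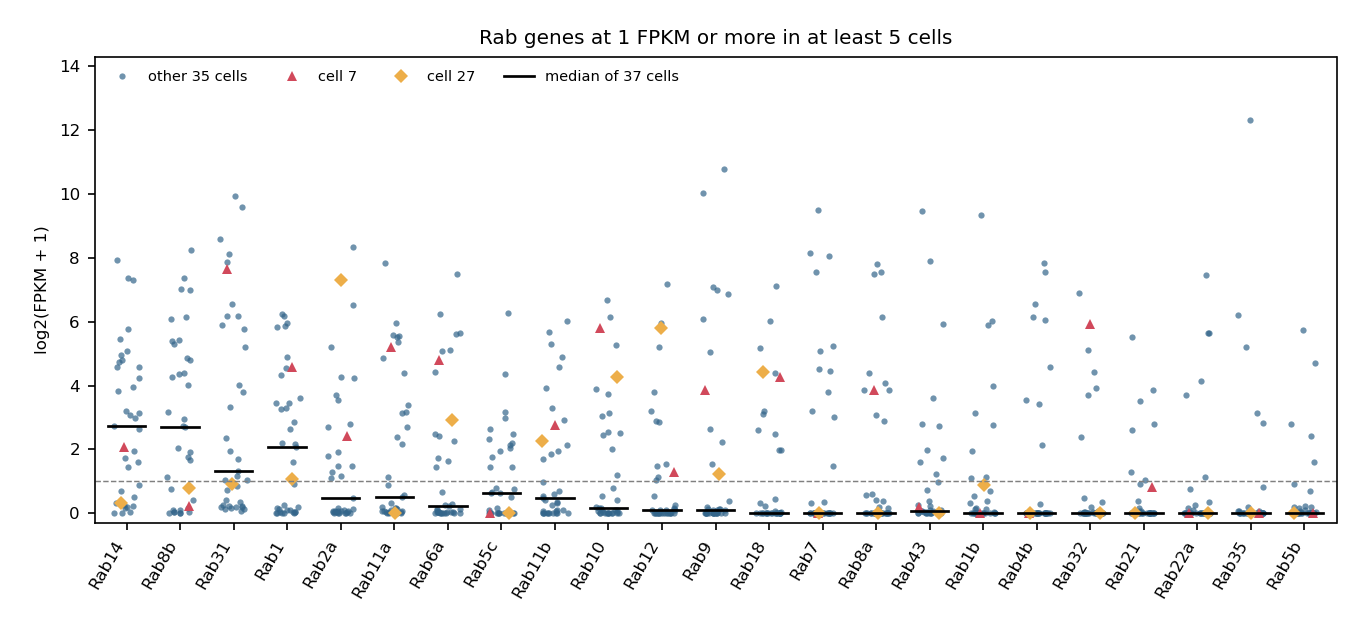
Levels of the 23 Rab genes detected in at least 5 cells, as log2(FPKM + 1), with 1 point per cell and a bar at the median of the 37 cells. The dashed line marks 1 FPKM, the triangle and diamond are cells 7 and 27, and from Rab18 onward nearly all medians lie at or close to 0 while single cells reach far above.

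Of the 8 Rabs of late endosomes, lysosomes and phagosomes, 2 were found in at least 5 cells (19.6% of all genes were), both with large differences between cells. Rab7, which drives fusion of late endosomes and phagosomes with lysosomes, was listed at 0 in 23 cells and detected in 12 (32.4%, 18.01% to 49.8%). It stood at 724, 282, 263 and 186 FPKM in cells 30, 20, 36 and 1, and between 1.82 and 36.7 FPKM in the other 8. Just 2 cells had a value between 0 and 1 FPKM. Such a gap was not particular to Rab7: Rab4b was listed at 0 in 27 cells, with 1 value between 0 and 1 FPKM. A listed 0 can be a failed estimate, and whether the cells fall into 2 kinds was not tested.

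Rab9, which returns mannose 6-phosphate receptors from late endosomes to the Golgi, was also found in 12 cells, with a median of 0.0823 FPKM over all 37. Cells 26 and 12 stood out, at 1756 and 1052 FPKM, and 3 further cells were above 100 FPKM. Cell 26 was another cell of high 1-fragment value, and its Rab9 was 0.144% of its FPKM sum. Rab9, Rab35, Rab7, Rab31 and Rab4b were the 5 Rabs that varied most above the trend of variance on mean level. Rab9 stood at the 94.1st percentile of all 4694 genes and Rab4b at the 79.1st. Of the 23 Rabs, 9 were above the trend, and the share of all genes above it was not computed. For scale, Rab32, just below the trend, stood at the 47.4th percentile and Rab1b, just above it, at the 55.2nd. The family as a whole was thus not shown to vary more than other genes.

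The remaining Rabs of this group were rare. Rab20, a phagosomal Rab, was found in 3 cells, at 904 FPKM in cell 15, 189 FPKM in cell 5 and 4.74 FPKM in cell 9, and led the family in both of the first. Rab39 was found in 2 cells and reached 103 FPKM in cell 17, also a cell of high 1-fragment value. Rab34, of phagosomes and cilia, was found in 4 cells and was highest, at 299 FPKM, in cell 27, against 91.2 FPKM at most in the 35 cells other than 7 and 27.

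Of the 11 Rabs of regulated secretion and lysosome-related organelles, 4 were found in some cell. In at least 5 cells, 1 gene was found, beside 19.6% of all genes. That gene was Rab32, which directs cargo to lysosome-related organelles, in 7 cells (18.9%, 7.96% to 35.2%) with a highest value of 119 FPKM in cell 35. Rab3d, of secretory granules, was found in 4 cells (highest 27.1 FPKM) and Rab38, the relative of Rab32, in 2 cells, at 241 FPKM in cell 22 and 2.45 FPKM in cell 24. Rab27a, which docks secretory granules and exosomes, was detected in 1 cell at 3.14 FPKM. The last group, of cilia and other tasks, had Rab28 in 3 cells and Rab23, Rab40b and Rab40c in 1 each. Rab23 and Rab40b were highest in cells 7 and 27, and Rab40b was listed at 0 in the other 36 cells.

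The number of Rabs detected in a cell followed the number of all genes detected in it. It ran from 1 in cell 32 through a median of 9 to 17 in cell 28, which had 2769 genes. Across the 37 cells the Spearman rho of the 2 numbers was 0.74 and Pearson r 0.72, a description of cells that share their depth in both numbers. The coefficient rho was 0.72 without cells 7 and 27, which had the most genes, and 0.73 and 0.72 in cells 0 to 19 and 20 to 36 by label number, a division that no label names as a batch. Rabs made up a median of 0.4996% of the genes detected in a cell, beside 0.238% of the rows of the table. The number of Rabs had little relation to the value of 1 fragment (rho 0.13), and the 6 cells of high value had a median of 10.5 Rabs beside 9 in the others. Cell 33 shows that many genes need not bring many Rabs: it had 2120 genes and 5 Rabs.

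**Figure D3:**
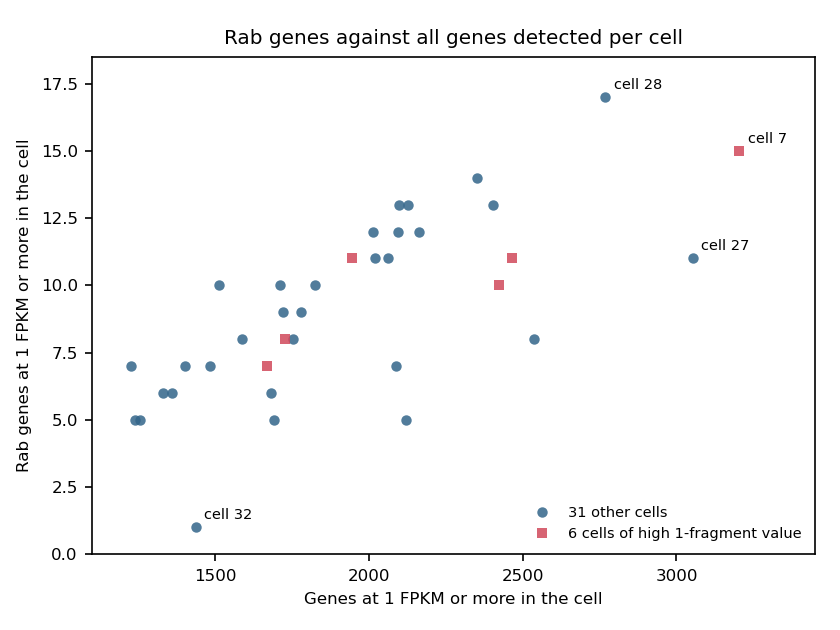
Number of Rab genes (vertical axis) against number of all genes (horizontal axis) at 1 FPKM or more in each of 37 cells, with squares for the 6 cells of high 1-fragment value. The points climb from lower left to upper right, with cell 28 highest at 17 Rabs and cell 32 lowest at 1.

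In summed level the family was a small part of the transcriptome. Its share of the FPKM sum ran from 0.0248% in cell 33 to 0.588% in cell 30, with a median of 0.104%. The share was hardly related to the number of genes detected (rho 0.16). Its median was 0.104% in cells 0 to 19 and 0.156% in cells 20 to 36.

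Close relatives were not detected evenly, and in most subfamilies 1 gene was found in more cells. Rab8b was found in 24 cells and Rab8a in 11, and 8 cells held both, beside 7.14 from the product of their shares. Rab1 and Rab1b were found together in 7 cells beside 5.11, which left 14 cells with Rab1 alone and 2 with Rab1b alone. Rab11a and Rab11b were together in 6 cells beside 6.05, close to the product. Rab31 and Rab22a were together in 4 beside 3.57. Rab5b and Rab5c were never both at 1 FPKM in a cell, where the product of their shares gives 1.89 cells. This depends on the level chosen. Among the cells with Rab5b, Rab5c was at 0.747, 0.417 and 0.563 FPKM in cells 3, 14 and 19. It was listed at 0 in cells 0 and 33, and the rho of the pair was 0.11. None of the 3 Rab5 genes was at 1 FPKM in 18 cells. These co-detections are small counts and carry no test.

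By summed FPKM the order of relatives could differ from the order by cells. Rab1b held 62.1% of the Rab1 subfamily signal although it was found in fewer cells, with 80.1% of its own signal in cell 29. Rab8b held 60.4% of the Rab8 signal, Rab11a 69.7% of that of the Rab11 subfamily, Rab4b 72.1% of that of Rab4, and Rab31 91.5% of that shared with Rab22a. Rab2a and Rab6a made up 99.7% and 90.9% of their subfamilies.

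**Figure D4:**
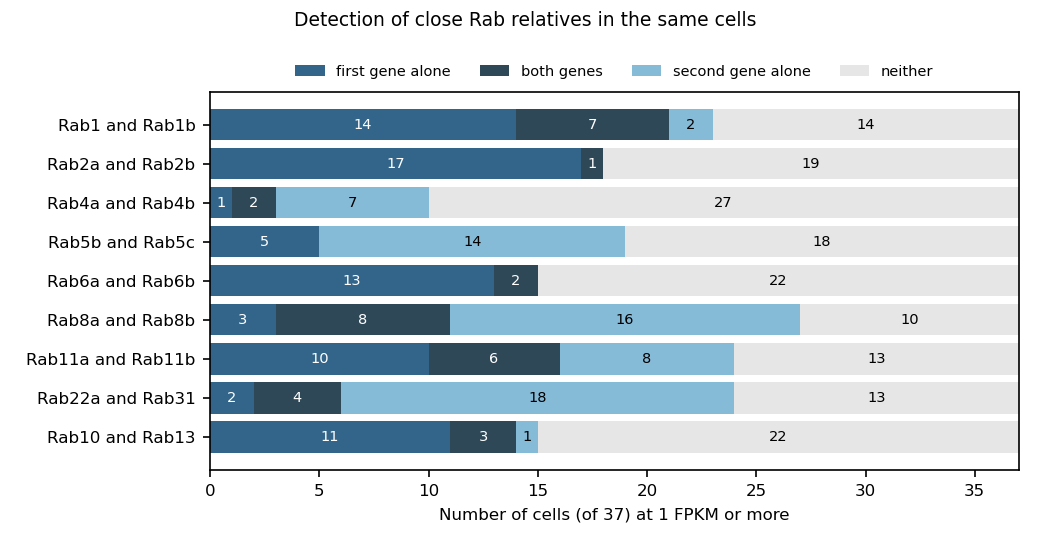
Number of the 37 cells in which the first gene alone, both genes, the second gene alone or neither of a pair of relatives was at 1 FPKM or more. Rab1, Rab8b, Rab31 and Rab5c cover more cells than their partners, and the bar of Rab5b and Rab5c has no segment for both.

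From cell to cell the Rabs did not vary as 1 block. The mean Spearman rho over the 253 pairs of the 23 more widely found Rabs was 0.05, beside 0.03 over all pairs of the 4694 genes. A rho of 0.3 or more was reached by 17 pairs (6.72%), beside 5.96% of all gene pairs. The 5 highest pairs were Rab8a with Rab32 (0.47), Rab1 with Rab2a (0.46), Rab31 with Rab21 (0.44), Rab8a with Rab21 (0.44) and Rab8b with Rab5b (0.42). Rab8a and Rab32 were detected together in 6 cells beside 2.08 from the product of their shares, and Rab1 and Rab2a, both of the early secretory route, in 14 beside 10.2. In cells 0 to 19 and 20 to 36 the rho of Rab1 with Rab2a was 0.20 and 0.68, and that of Rab8a with Rab32 was 0.35 and 0.74. All these are descriptions over 37 cells with many values at 0, picked as the extremes of 253 pairs.

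The lowest rho was that of Rab7 with Rab18, at -0.53. Each was detected in 12 cells and no cell held both, where the product of the shares gives 3.89. The 12 cells with Rab7 held Rab18 below 1 FPKM, and the reverse held for the 12 with Rab18. Their rho was -0.50 without cells 7 and 27, and -0.50 and -0.43 in cells 0 to 19 and 20 to 36. The pair was picked as the lowest of 253 in these same cells. The subsets and the count of shared cells are therefore no independent check. Rab7 was listed at 0 in 23 cells and Rab18 in 16, and a listed 0 can be a failed estimate. The next lowest pairs were Rab8b with Rab18 (-0.37), Rab18 with Rab35 (-0.35), Rab9 with Rab43 (-0.35) and Rab9 with Rab7 (-0.34). Rab7 and Rab9, both of late endosomes, shared 1 cell beside 3.89 from the product.

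Genes of the proteins that handle Rabs were counted in the same way. Of 106 such genes, all in the table, 83 were found in some cell, 42 in at least 5 cells and 4 in at least 19, where the shares over all genes were 19.6% for 5 cells and 4.03% for 19. Without cells 7 and 27, 40 were found in at least 5 cells. Among 8 genes of prenylation and extraction, 4 were found in at least 5 cells. Gdi2, the broadly acting GDI, was present at 1 FPKM in 27 cells (73.0%, 55.9% to 86.2%), more than any Rab, and had a median of 13.04 FPKM. Rabac1, which helps to release Rabs from GDI, was found in 23 (median 11.9 FPKM). Chm, the escort protein of prenylation, was found in 6.

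Exchange factors were found in at least 5 cells for 18 of 32 genes, where the share over all genes was 19.6%. Trappc2l and Trappc1, subunits of the TRAPP complexes that act on Rab1, were found in 19 and 13 cells, Rab3il1 in 17 and Rin2, which acts on Rab5, in 15. Of the GTPase-activating proteins, 10 of 27 were found in at least 5 cells and none in 19, led by Tbc1d10b in 10 cells, Tbc1d5 and Tbc1d22a in 9 each and Tbc1d17 in 7. Effectors were found in at least 5 cells for 10 of 39. Plin3, a lipid droplet coat protein that also binds Rab9, was found in 22 cells (median 5.73 FPKM), Rab11fip5 in 17, Rilpl2 in 13 and Eea1, the tether of early endosomes, in 12.

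Named partners of Rabs were compared with them in the same way, in small numbers of cells. Rab7 and Gdi2 were together in 9 cells beside 8.76 (rho -0.05), Rab1b and Gdi2 in 8 beside 6.57 (rho 0.04), and Rab9 and Plin3 in 8 beside 7.14 (rho -0.18). Rab5c and Eea1 shared 7 cells beside 4.54 (rho 0.22), and Rab5c and its exchange factor gene Rabgef1 6 beside 3.41 (rho 0.27). Rab7 was in all 3 cells with its effector gene Plekhm1 (rho 0.09). Rab5c and Rabep1 shared 2 cells beside 3.03, and Rab1b and Uso1, a Golgi tether, none beside 1.22 (rho 0.12). Rilp, another Rab7 effector, and Unc13d and Sytl3, both effectors of Rab27a, were detected in no cell.

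Matched promoters of the Rabs listed at 0 in every cell held fewer CpG in the median than those of the Rabs found. RefSeq promoters on GRCm38.p6, 250 bases before to 50 after the start, were matched for 47 of the 57 genes. Of the 23 Rabs found in at least 5 cells, the 21 matched had a median of 24 CpG per promoter (9 to 43). Of the 16 found in 1 to 4 cells, the 14 matched had 25 (13 to 42). Of the 17 listed at 0 everywhere, the 11 matched had 9 (5 to 38), so the groups were matched unevenly. The ranges overlap, since Rab15 is at 38 with no cell and Rab9 at 9 with 12 cells. Over the whole table the medians were 22 for genes found in at least 5 cells, 20 for 1 to 4 cells and 5 for genes listed at 0, so a lower median for undetected genes was not particular to Rabs. No test was made. A pair is printed to show the contrast: the promoter of Rab14, the Rab found in most cells, with 27 CpG, and that of Rab25, an epithelial Rab listed at 0 in every cell, with 9. Both are on the minus strand, at chr2:35201071-35201370 and chr3:88548230-88548529, printed 5′ to 3′ with each CpG in capitals.
Rab14: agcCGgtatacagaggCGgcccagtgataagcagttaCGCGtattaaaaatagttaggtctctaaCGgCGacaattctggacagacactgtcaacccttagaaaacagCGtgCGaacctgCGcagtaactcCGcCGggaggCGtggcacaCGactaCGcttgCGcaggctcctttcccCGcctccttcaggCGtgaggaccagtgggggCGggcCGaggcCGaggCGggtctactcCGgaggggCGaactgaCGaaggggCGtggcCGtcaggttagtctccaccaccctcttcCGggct
Rab25: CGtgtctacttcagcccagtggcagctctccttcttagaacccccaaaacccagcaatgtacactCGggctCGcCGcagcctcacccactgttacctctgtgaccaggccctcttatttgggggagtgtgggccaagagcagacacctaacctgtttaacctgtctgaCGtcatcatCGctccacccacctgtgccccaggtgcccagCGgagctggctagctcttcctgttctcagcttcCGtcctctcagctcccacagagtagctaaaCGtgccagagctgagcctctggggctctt

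The E-box CACGTG, which reads the same on both strands and is bound by factors of lysosome gene control such as TFEB, was found in 5 of the 47 Rab promoters (10.6%) and in 7.24% of all 27025 promoters of this length. Of the 21 Rabs found in at least 5 cells that had a matched promoter, 1 promoter held it (4.76%), beside 11.5% for all table genes found that widely.

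**Figure D5:**
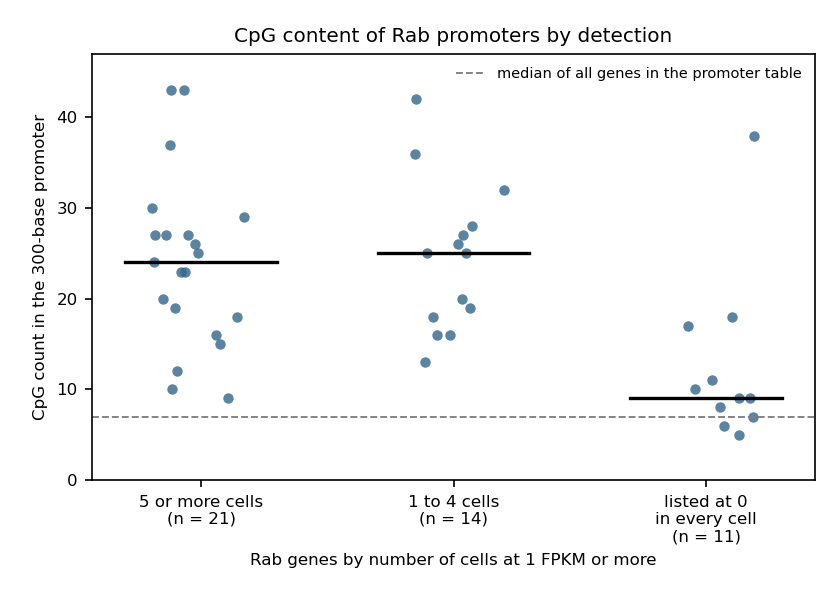
Number of CpG in the 300-base promoter (vertical axis) of 46 Rab genes (Rab5a left out), grouped by the number of cells at 1 FPKM or more, with 1 point per gene, a bar at each group's median and a dashed line at the median of 7 over all promoters. The bars of the first groups stand at 24 and 25, that of the Rabs listed at 0 at 9, and the points overlap.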

How the data were processed

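Single-cell RNA-seq was done on 37 cells of 1 group. The authors deposited FPKM in 1 table. The submitters' processing notes name STAR, Cuffnorm and the mouse build mm9, without versions or roles. The gene annotation behind the table was not stated in any source used here. No fragment counts were at hand, so no count test was used, and the depth of each cell is unknown. Columns were matched to cells by title.

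Detection was 1 FPKM or more, and correlations used log2(FPKM + 1). For the 1-fragment value, ratios between cells of the FPKM values from 0.005 to 1 were pooled for each of 666 pairs of cells, the commonest ratio was taken, and 426 pairs entered the solution. It and the mean rho were tried on simulated data made of whole fragment counts, without reads shared between genes or failed estimates. How well they hold for these data was not tested. Intervals are exact Clopper-Pearson. The variance trend was a lowess fit with span 0.3. No protein table was used; the loop and the cysteine were sought in translated coding sequences of GENCODE M21, and the other planned motifs were not searched. Motifs and overlaps are from GENCODE, and promoters from RefSeq (GRCm38.p6, the most upstream start of a gene). Because the build differs from mm9, no coordinate was set against the values. Python 3.11.15, SciPy 1.17.1, statsmodels 0.14.6 and Biopython 1.88 were used.

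Named genes were Rabs in 19 or more cells, relatives found in 5 or more cells, the 5 most variable, and others by count. In each machinery group the 4 genes in most cells were named, except 1 gene that is not reported here. Members, role lists and machinery lists were chosen with earlier results of these data known. Alternatives were other detection levels, rescaling each cell to 1 common FPKM sum, subsets of cells and other correlation measures.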

Additional observations from a re-analysis of the deposited data

How the results depend on the processing

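Of 32 alternatives to 5 counts and summary values, 21 stayed within 1.5 times the reported value. Only the mean rho could change sign, and it did so in none of its 10 alternatives. The number of Rabs found in 19 or more cells, 4 at 1 FPKM, was 10 at 0.1 FPKM, 2 at 5 FPKM, and 7 with each cell rescaled to 1 common FPKM sum. The median number of Rabs per cell, 9, was 14 at 0.1 FPKM. The median Rab share of the FPKM sum, 0.104%, was 0.156% in cells 20 to 36 and 0.163% when pooled over cells. The mean rho of Rab pairs, 0.0525, was 0.0339 in cells 0 to 19, 0.0798 in cells 20 to 36 and 0.0337 as Pearson r. It was 0.0183 with every Rab above 0 in any cell and 0.0115 with the number of genes detected removed. In all 10 alternatives it was above the mean over all genes, but these reuse the same cells and are no independent checks. Some gaps were small: the mean over all genes above 0 in any cell was 0.0179. With the number of genes detected removed, the mean over all genes was 0.00555. The number of Rabs in 5 or more cells, 23, ranged from 22 to 29. Of 16 counts of cells with Rab14, Rab8b, Rab31 or Rab1, alternatives added after the data were seen, 15 stayed within 1.5 times; Rab31 was in 34 cells at 0.1 FPKM beside 22. No replicate animals are named, so none could be left out. Depth limits the rare Rabs: a gene listed at 0 may have had too few fragments to be seen.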
